A study of Oryza sativa with 4 samples.

Results

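The genes that mark and license replication origins were examined in 7-day-old rice seedlings of the wild type (WT, cultivar Dongjin, a Japonica rice) and of mre11, a mutant with a T-DNA insertion. The members were the gene models whose KEGG orthology identifier in the deposited annotation is that of 1 of the 6 subunits of the origin recognition complex (ORC1 to ORC6), of CDC6 or of CDT1. These 8 identifiers were carried by 10 of the 55986 gene models, with 1 locus for each ORC subunit, 1 for CDC6 and 3 for CDT1. The mutant comes from a library of insertion lines, has the T-DNA in an intron of Mre11, and was compared as 1 line with no treatment in either group. Each genotype had 2 samples of whole seedlings, with 3 plants pooled in each, so leaf, root and meristem cells are mixed in every value.

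Every round of DNA replication in plants, animals and fungi starts at origins. The origin recognition complex binds the DNA there, CDC6 joins it, and together with CDT1 they load the ring-shaped MCM helicase, a step called licensing that is restricted to the phase of the cell cycle before DNA synthesis. The loaded helicase is later switched on by CDC45, the GINS complex and protein kinases, and DNA polymerase alpha with its primase then lays down the first primers. In a seedling these genes are known for their use in dividing cells of the root tip, the shoot apex and the leaf base. In Arabidopsis, CDC6 and CDT1 are transcribed under the control of E2F factors, which act at the entry into S phase.

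The identity of the members was checked against other annotation. All 6 gene models of the files that carry a GO term for the origin recognition complex were the 6 ORC members. A gene with the matching ORC synonym was found in RefSeq (assembly ASM3414082v1) on the chromosome given by the locus name for all 6. The listed gene lengths were equal for ORC4 (4384 bases) and ORC5 (2463 bases). They differed for ORC1 (7784 bases in RefSeq against 7754), ORC2 (3008 against 2454), ORC3 (6110 against 5935) and ORC6 (3329 against 2953). CDC6 (LOC_Os01g63710) carried a GO term for cell division and none for the complex. Of the CDT1 loci, LOC_Os04g10650 and LOC_Os10g34820 carried no GO term, so their name rests on the identifier alone. The third, LOC_Os01g08880, carried GO terms for protein targeting to the peroxisome and for ATPase activity, which go against the CDT1 identifier, and it is therefore given by its locus name below.

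The counts on genes summed to between 12753324 and 19004825 per library and were higher in both mre11 libraries than in both WT libraries. Mre11 itself (LOC_Os04g54340) had 306 and 471 counts in WT and 132 and 118 in mre11 and was thus lower in both libraries labelled mre11. Counts were scaled to CPM, the number of counts per 1e+06 counted reads, with edgeR's TMM factors. Genes were tested with edgeR's quasi-likelihood test and Benjamini-Hochberg adjustment over all 24470 tested genes, and a gene is called higher or lower in mre11 where it differs 2-fold or more with an adjusted p under 0.05. All 10 members passed the filter on low counts. With 2 samples per genotype an exact permutation of the samples cannot give a p below 0.33 for 1 gene, so the p-values depend on a spread that edgeR estimates over many genes together.

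Of the ORC subunits, 4 (ORC1, ORC3, ORC5 and ORC6) were called higher in mre11, by 2.49 to 4.64-fold, and so was 1 CDT1 locus, by 4.17-fold. ORC2 and ORC4 differed by less than their spread between replicates. CDC6 and the other CDT1 locus lay higher in both mre11 libraries and were not past the threshold, and LOC_Os01g08880 was called lower. In all, 5 of the 10 members were called higher, where 12.0% of all tested genes were, and 1 was called lower, where 9.31% were. At an adjusted p under 0.05 with no fold threshold the members' numbers were again 5 and 1, beside 18.8% and 18.3% of all tested genes. The median log2 fold change of the members was 1.15, and 1.32 without LOC_Os01g08880, against 0.03 for all tested genes. Both mre11 libraries lay above both WT libraries in 7 members (37.5% of all tested genes) and below both in 1 (35.7%). Scaling by library size alone moved the median of all tested genes to 0.19 and the calls over all genes from 2930 higher and 2277 lower to 3795 and 1711, and the members called higher from 5 to 7, with 1 lower.

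**Figure D1:**
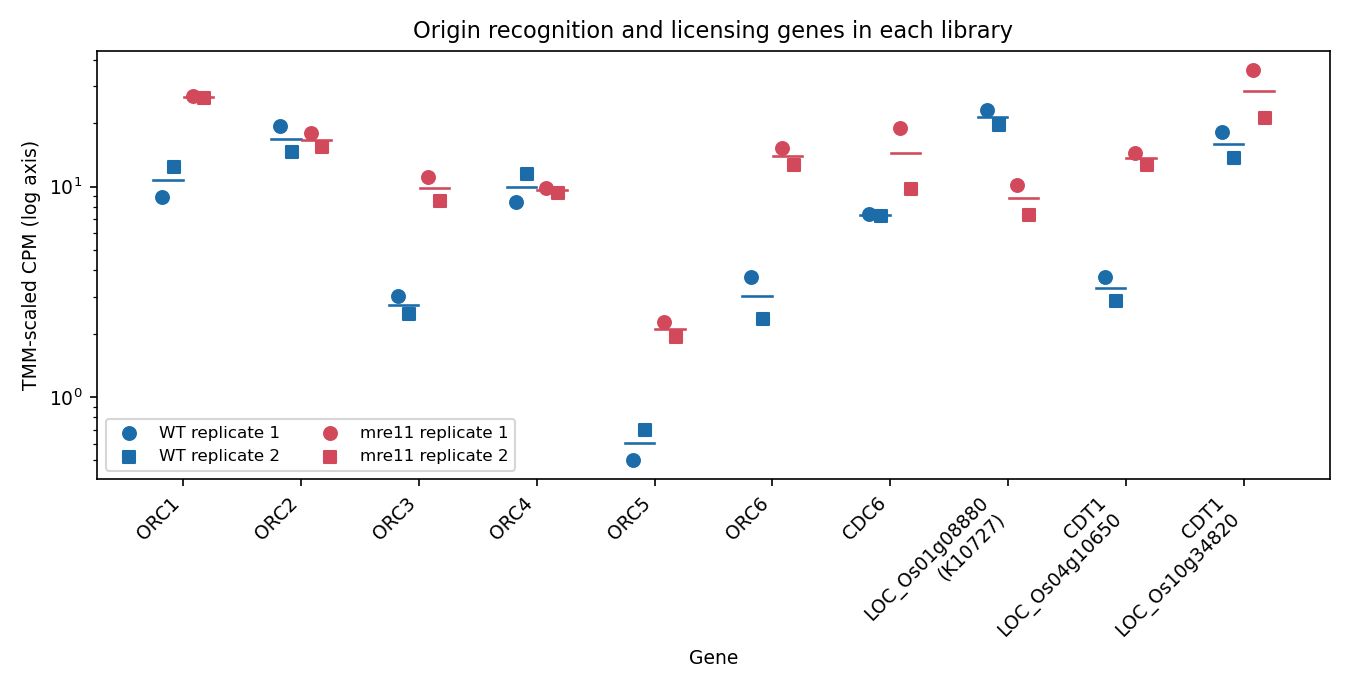
TMM-scaled CPM (log axis) of each of the 10 genes in the 4 libraries, with WT in blue, mre11 in red, circles for replicate 1, squares for replicate 2 and a line at the mean of each genotype. In 7 genes both mre11 points lie above both WT points, in LOC_Os01g08880 both lie below, and in ORC2 and ORC4 they overlap.

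ORC1 (LOC_Os06g08790) is the largest ATPase subunit of the complex, and in plants it carries a PHD finger that reads histone marks. It had 106 and 195 counts in WT and 557 and 464 counts in mre11. Scaled, these were 10.7 ± 2.48 CPM in WT and 26.6 ± 0.378 CPM in mre11 (SD, n = 2). The groups did not overlap, and the 2 mre11 libraries lay closer together than the 2 WT libraries. By edgeR's test the log2 fold change was 1.32 ± 0.214 (standard error), with an adjusted p of 0.00587.

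ORC6 (LOC_Os07g43540), the subunit that in yeast and animals takes part in DNA binding and in the recruitment of CDT1, had the largest difference of the 10 genes. Its counts were 44 and 37 in WT and 314 and 223 in mre11, or 3.03 ± 0.949 CPM against 13.9 ± 1.76 CPM (SD, n = 2). The lowest mre11 library stood well above the highest WT library. The difference was 4.64-fold (log2 fold change 2.21, standard error 0.301, adjusted p = 0.00341 from the same edgeR test), and 3.58% of all tested genes had a fold change at least as high.

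ORC3 (LOC_Os10g26280), a core subunit without a known enzymatic role, had 36 and 39 counts in WT and 230 and 150 in mre11. This gave 2.75 ± 0.383 CPM in WT and 9.82 ± 1.83 CPM in mre11 (SD, n = 2), without overlap. By edgeR's test the log2 fold change was 1.84 ± 0.296 (standard error), with an adjusted p of 0.00567.

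ORC5 (LOC_Os03g55200), another ATPase-type subunit, was the least abundant of the 10 genes. It had 6 and 11 counts in WT and 47 and 34 in mre11, or 0.602 ± 0.139 CPM against 2.10 ± 0.239 CPM (SD, n = 2). Both mre11 libraries were above both WT libraries, on few counts. The log2 fold change of 1.78 had the largest standard error of the members (0.466, adjusted p = 0.0268 from edgeR's test). The call did not hold with any 1 library left out (adjusted p from 0.088 to 0.133, log2 fold change 1.57 to 2.04), nor with DESeq2 (adjusted p = 0.0753). With limma on log2(RPKM + 1), a scale that understates the change of genes with low values, the log2 fold change was 0.69, under 2-fold (adjusted p = 0.0217), and with log2(RPKM + 0.1) it was 1.65 and called (adjusted p = 0.025). The paper measured ORC5, MCM3, MCM6 and MCM7 by quantitative RT-PCR in seedlings and describes its replication genes as significantly lower in mre11. The RNA-seq value of ORC5 here goes the other way, as do those of MCM6 and MCM7. The MCM3 loci differed by edgeR's test, at 1.59 for LOC_Os05g39850 (adjusted p = 0.00302) and -0.47 for LOC_Os05g08100 (adjusted p = 0.349). From these RNA-seq data, the paper itself describes the replication and repair pathways as activated to some extent. The reason for the difference from the quantitative RT-PCR was not tested.

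ORC2 (LOC_Os03g08640) and ORC4 (LOC_Os01g49010), the core subunits that complete the ring, did not follow the others. ORC2 had 230 and 229 counts in WT and 370 and 271 in mre11, which after scaling were 16.9 ± 3.36 CPM and 16.6 ± 1.75 CPM (SD, n = 2). ORC4 had 101 and 180 counts in WT and 204 and 164 in mre11, or 9.97 ± 2.10 CPM and 9.59 ± 0.377 CPM (SD, n = 2). For both genes the mre11 libraries lay between the 2 WT libraries, while in raw counts, which are not corrected for depth, both mre11 libraries exceeded both WT libraries for ORC2 and not for ORC4. The log2 fold change of ORC2 was -0.02 with a 95% interval from -0.53 to 0.49 (adjusted p = 0.94 from edgeR's test). That of ORC4 was -0.06 with an interval from -0.64 to 0.52 (adjusted p = 0.86 from the same test). These intervals leave out a 2-fold difference in either direction and allow smaller ones, and the sign of both values changed with the scaling.

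**Figure D2:**
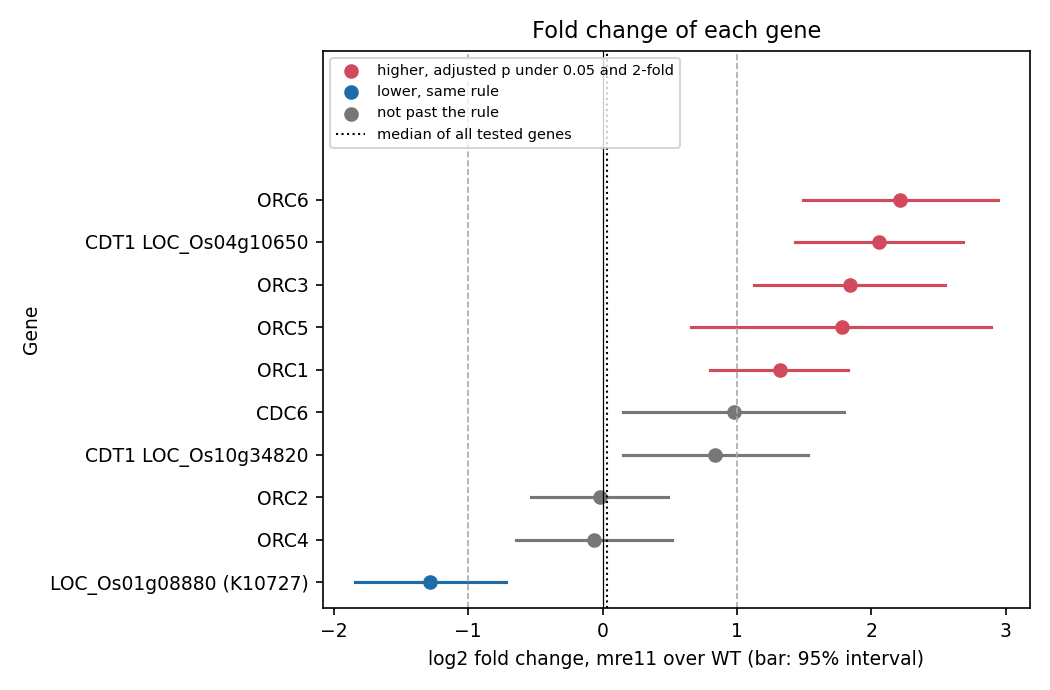
Log2 fold change (mre11 over WT) of each gene with its 95% interval from the edgeR fit, coloured by whether it passed an adjusted p under 0.05 with a 2-fold difference (dashed lines). ORC6 (2.21) and LOC_Os04g10650 (2.06) stand at the top, ORC2 and ORC4 at 0, and LOC_Os01g08880 (-1.28) at the bottom, and the dotted line is the median of all tested genes (0.03).

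The proportions of the ORC transcripts differed between the genotypes. Levels of different genes were compared only as the authors' RPKM, which is scaled by a length. That length was shorter than the listed gene length for every member, as 1730 against 4384 bases for ORC4. ORC2 held 41.8% and 32.5% of the summed ORC RPKM in the WT libraries and 19.8% and 19.4% in the mre11 libraries. ORC6 held 15.2% and 10.0% in WT and 32.1% and 30.5% in mre11. ORC2 thus had the highest RPKM of the 6 subunits in both WT libraries, and ORC6 in both mre11 libraries. ORC4 went from 22.3% and 31.0% in WT to 13.3% and 14.3% in mre11, and ORC3 from 5.35% and 4.56% to 10.1% and 8.81%. ORC1 held 14.3% and 20.4% in WT and 22.1% and 24.6% in mre11, and ORC5 between 1.07% and 2.50% in all 4 libraries. These shares do not depend on the scaling of the libraries, but they show unequal change only. The summed RPKM of the 6 subunits was 20.5 and 20.4 in WT and 46.7 and 38.7 in mre11.

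**Figure D3:**
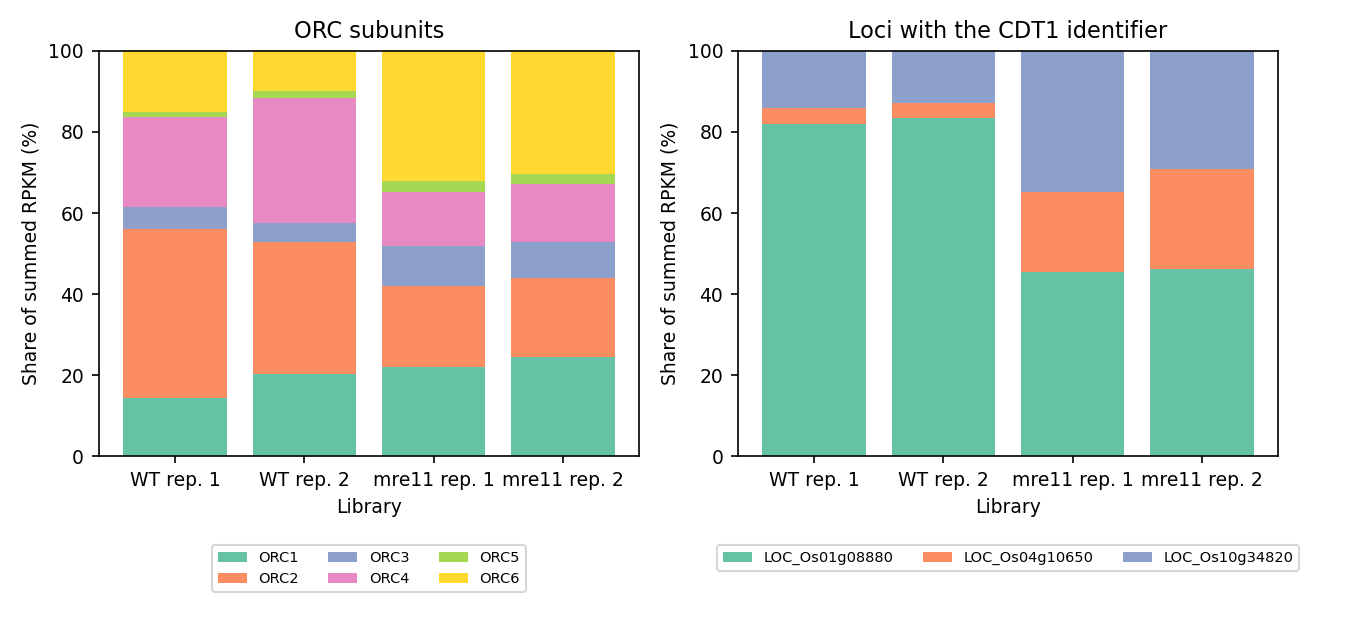
Share of the summed RPKM (%) that each ORC subunit (left) and each locus with the CDT1 identifier (right) held in the 4 libraries. The ORC6 band grows from 15.2% and 10.0% in WT to 32.1% and 30.5% in mre11 while the ORC2 and ORC4 bands narrow, and LOC_Os01g08880 goes from 82.0% and 83.5% to 45.5% and 46.3%.

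CDC6 (LOC_Os01g63710) is the ATPase that joins the complex at the origin to start helicase loading. It had 88 and 114 counts in WT and 394 and 171 in mre11, or 7.32 ± 0.0973 CPM and 14.4 ± 6.58 CPM (SD, n = 2). Both mre11 libraries were higher than both WT libraries, but they were far from each other, at 19.0 CPM in replicate 1 and 9.72 CPM in replicate 2. The log2 fold change of 0.98 (standard error 0.342) was not past the threshold (adjusted p = 0.0649 from edgeR's test). The value was 1.37 without mre11 replicate 2 (adjusted p = 0.00635) and 0.42 without mre11 replicate 1 (adjusted p = 0.313). With all 4 libraries kept, it was called with scaling by library size alone (1.15, adjusted p = 0.0431 from edgeR's test). With DESeq2 (0.96, adjusted p = 0.0484) and with edgeR without a filter on low counts (0.98, adjusted p = 0.00763) it stayed under 2-fold.

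CDT1 brings the MCM helicase to the complex. The locus LOC_Os04g10650 had 44 and 45 counts in WT and 301 and 223 in mre11, or 3.28 ± 0.589 CPM and 13.6 ± 1.32 CPM (SD, n = 2). The groups were far apart, with a 4.17-fold difference (log2 fold change 2.06, standard error 0.261, adjusted p = 0.00286 from edgeR's test). The second locus, LOC_Os10g34820, had 216 counts in each WT library and 740 and 373 in mre11, or 15.9 ± 3.11 CPM and 28.5 ± 10.3 CPM (SD, n = 2). As for CDC6, both mre11 libraries were above WT and differed from each other, at 35.7 CPM in replicate 1 and 21.2 CPM in replicate 2. Its log2 fold change of 0.84 (standard error 0.288) was not past the threshold (adjusted p = 0.0605 from edgeR's test). It was 1.16 without mre11 replicate 2 and 0.42 without mre11 replicate 1.

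LOC_Os01g08880, with the CDT1 identifier and peroxisome GO terms, was the only member called lower. It had 276 and 309 counts in WT and 212 and 129 in mre11, or 21.4 ± 2.49 CPM and 8.78 ± 2.06 CPM (SD, n = 2), without overlap. The difference was 2.43-fold (log2 fold change -1.28, standard error 0.233, adjusted p = 0.00834 from edgeR's test), with a fold change at least as low in 7.15% of all tested genes. Without WT replicate 1 the adjusted p was 0.0611 and the log2 fold change -1.17. The length behind its RPKM was 669 bases, against 2185 bases for LOC_Os04g10650 and 3068 bases for LOC_Os10g34820.

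Within each library, the 3 loci with the CDT1 identifier can be set against each other. LOC_Os04g10650 was below LOC_Os10g34820 in every library, by 1.80 and 1.78 on the log2 RPKM scale in WT and by 0.81 and 0.25 in mre11. The mean log2 ratio of LOC_Os04g10650 over LOC_Os10g34820 was thus 1.26 higher in mre11, with no overlap of the groups (two-sided exact permutation test, p = 0.333, the smallest that 2 against 2 samples allow, and 0.333 adjusted over 3 ratios). The log2 ratio of LOC_Os01g08880 over LOC_Os04g10650 was 4.36 and 4.49 in WT and 1.20 and 0.92 in mre11, and over LOC_Os10g34820 it was 2.55 and 2.71 in WT and 0.39 and 0.67 in mre11 (exact permutation, p = 0.333 for each). Whether these loci share reads was not examined, so the value of each locus is uncertain to that extent.

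By mean RPKM, the order in WT was LOC_Os01g08880 (30.2), ORC2 (7.61), ORC4 (5.45), LOC_Os10g34820 (4.90), ORC1 (3.55), ORC6 (2.58), LOC_Os04g10650 (1.42), CDC6 (1.29), ORC3 (1.02) and ORC5 (0.27). Of these neighbours, the libraries of ORC4 and LOC_Os10g34820, of ORC1 and ORC6, and of LOC_Os04g10650 and CDC6 overlapped, and the other pairs did not. In mre11 the mean RPKM was 14.0 for LOC_Os01g08880 and 13.4 for ORC6, whose libraries overlapped. ORC1 (9.93), LOC_Os10g34820 (9.88) and ORC2 (8.39) followed, each overlapping its neighbour. LOC_Os04g10650 (6.60) overlapped ORC4 (5.87), ORC3 (4.07) overlapped CDC6 (2.85), and ORC5 (1.05) was again the lowest. ORC6 thus moved from sixth to second place, and ORC5 stayed last in both genotypes. The length behind the RPKM of CDC6 was 5371 bases, the longest of the 10 genes, and its place in the order depends on that length. That of LOC_Os01g08880 was 669 bases, the shortest, and the size of its lead and of its RPKM shares depends on it. In CPM, which is not per length, its WT mean was 21.4, beside 16.9 for ORC2 and 15.9 for LOC_Os10g34820.

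The steps that follow licensing were read from lists of KEGG identifiers. Of 7 tested loci for the MCM2 to MCM7 helicase, which the licensing genes load, 5 were called higher and 0 lower by edgeR's test. Of all tested genes, 12.0% were called higher and 9.31% lower. The helicase loci had a median log2 fold change of 1.63, beside 1.15 for the 10 origin genes. They ran from -0.47 for a second MCM3 locus (LOC_Os05g08100, adjusted p = 0.349) to 2.12 for MCM7 (LOC_Os12g37400, adjusted p = 0.00137). Without mre11 replicate 1, that MCM3 locus was called lower (-1.08, adjusted p = 0.0458).

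Of 9 tested loci that act when origins fire, 3 were called higher and 0 lower by edgeR's test, beside 12.0% and 9.31% of all tested genes, with a median log2 fold change of 0.27. The highest was a locus of CDC45, the helicase cofactor (LOC_Os12g03130), with 10 and 10 counts in WT and 163 and 107 in mre11 (log2 fold change 3.24, standard error 0.381, adjusted p = 0.00233). The lowest was GINS2 (LOC_Os01g14610), a subunit of the GINS complex, with 668 and 819 counts in WT and 686 and 453 in mre11, a log2 fold change of -0.88 (adjusted p = 0.0101) that was under 2-fold. Without mre11 replicate 1 it was called lower (-1.06, adjusted p = 0.00501), and with no fold threshold 2 of the 9 loci, GINS2 and GINS3, were lower. With all 4 libraries, at an unadjusted p under 0.05 with a 2-fold difference, and with DESeq2 or limma in place of edgeR, 0 genes of the helicase and origin firing lists were lower. Loci with the same identifier, as for CDC45, MCM3 and MCM10, were not examined for shared reads.

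For DNA polymerase alpha and primase, 3 of 4 loci were called higher by edgeR's test, where 12.0% of all tested genes were. Their log2 fold changes ran from 0.93 for POLA2 (LOC_Os12g13950, adjusted p = 0.0663) to 1.77 for PRI2 (LOC_Os07g22400, adjusted p = 0.00416), with a median of 1.52. CUL4 and DDB1 form the core of a ubiquitin ligase that in animals degrades CDT1 once replication has begun. Neither of their 2 tested loci was called, at -0.31 for CUL4 (LOC_Os03g57290, adjusted p = 0.0986) and -0.52 for DDB1 (LOC_Os05g51480, adjusted p = 0.0228, under 2-fold).

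**Figure D4:**
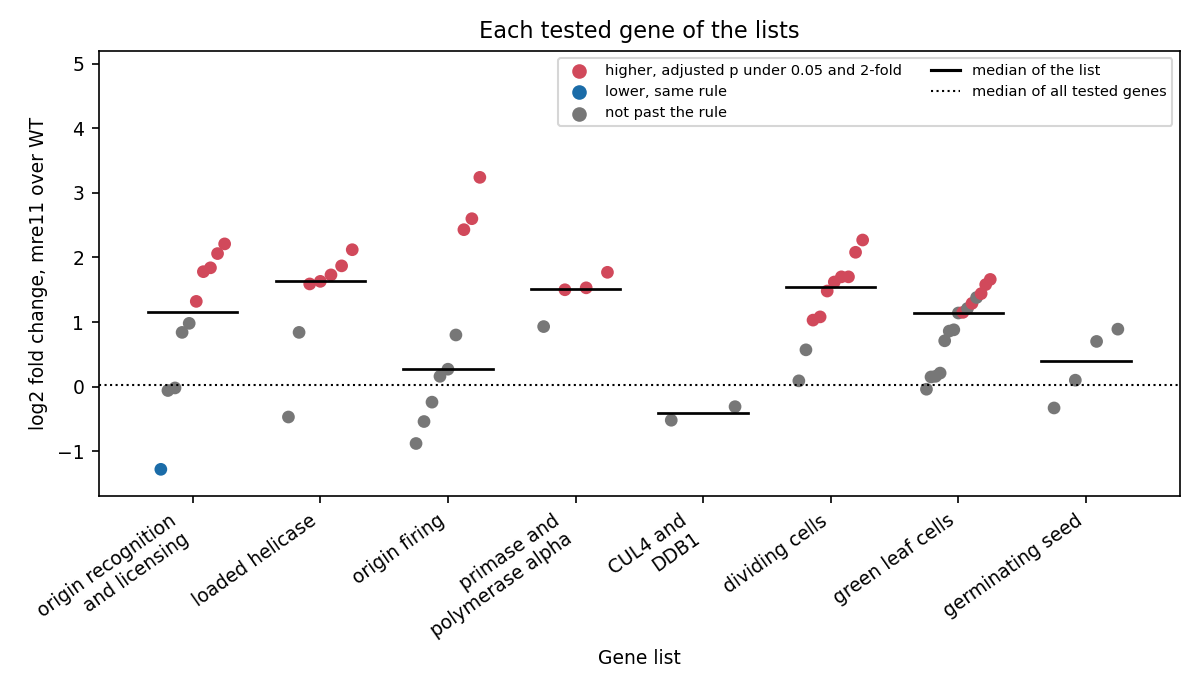
Log2 fold change (mre11 over WT) of every tested gene in each list, 1 point per gene, coloured as called higher, lower or neither, with a line at the median of each list and a dotted line at the median of all tested genes (0.03). The origin recognition and licensing genes spread from -1.28 to 2.21, the helicase list has its median at 1.63, and the CUL4 and DDB1 genes lie below 0.

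Most markers of dividing cells lay higher in both mre11 libraries, as did most of the origin recognition and licensing genes. For the root tip, the paper reports fewer meristem cells in mre11 and a lower proportion of them labelled as replicating. The values here are from whole seedlings. Of 10 tested loci for PCNA, ribonucleotide reductase, DNA topoisomerase II and kinesin-5, 8 were called higher by edgeR's test, where 12.0% of all tested genes were, and their summed CPM was 165 and 163 in WT and 461 and 407 in mre11. One further topoisomerase II locus was at 0 in all 4 libraries. In bulk samples, a different number of dividing cells and a different amount of these RNAs per cell cannot be told apart. The light-harvesting and PsbO markers of green leaf cells were abundant, with a summed CPM of 11644 and 19105 in WT and 22020 and 34686 in mre11. Of their 15 tested loci, 5 were called higher, where 12.0% of all tested genes were. The median log2 fold change was 1.14 for these loci and 1.55 for the markers of dividing cells. It was 1.15 for the members and 0.03 for all tested genes. Both mre11 libraries lay above both WT libraries in 12 of the 15 green leaf loci (37.5% of all tested genes). Another of their loci was at 0 in all libraries, and 1 tested locus with the LHCB1 identifier (LOC_Os01g52250) carried a GO term for starch synthase. Alpha-amylase, a marker of the germinating seed, had a summed CPM of 60.6 and 55.9 in WT and 43.5 and 69.3 in mre11. Within mre11, its locus LOC_Os08g36910 had 12 counts in replicate 1 and 376 in replicate 2, beside 73 and 89 in WT. The part of these cell types in the result was not tested.

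**Figure D5:**
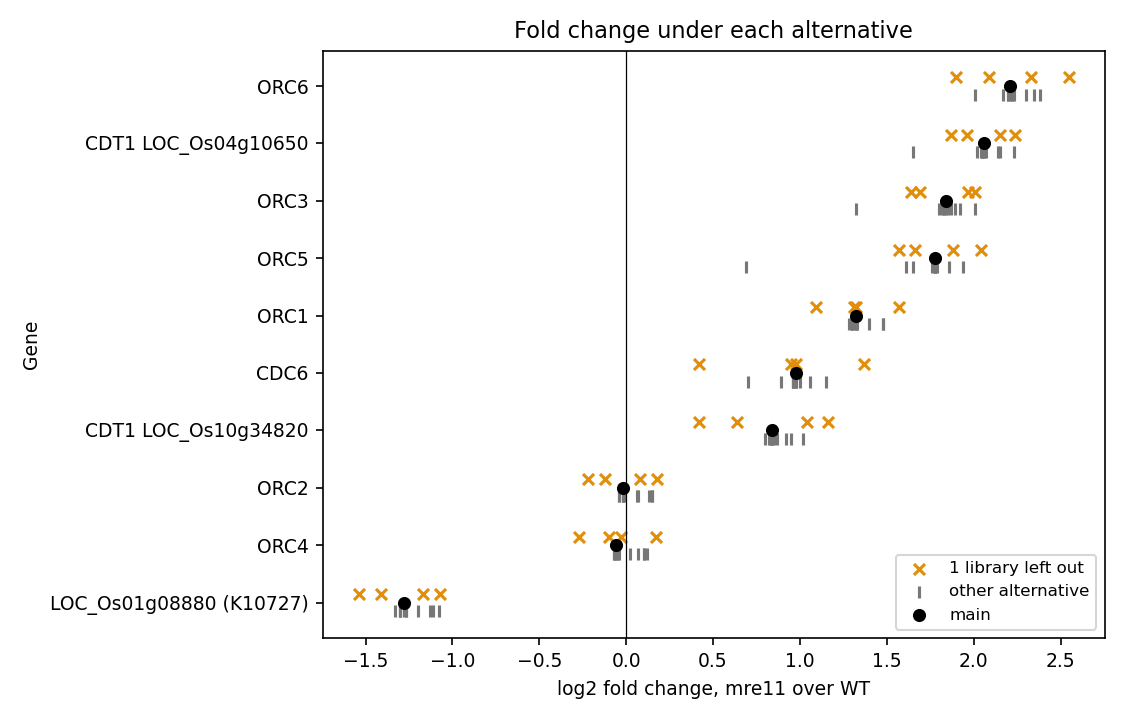
Log2 fold change (mre11 over WT) of each gene in the main fit (black points), with 1 library left out (orange crosses) and under the other alternatives (grey ticks). ORC6, ORC3, ORC1 and LOC_Os04g10650 stay above 1, ORC2 and ORC4 lie on both sides of 0, and CDC6 and LOC_Os10g34820 fall to 0.42 when mre11 replicate 1 is left out.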

How the data were processed

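RNA-seq of 2 WT and 2 mre11 samples was used. The authors mapped reads to version 7.0 of the rice pseudomolecules, counted them per gene with HTSeq 0.6.1 and deposited raw counts and RPKM for 55986 gene models; aligner and strand setting are not given in the sources used here. A second deposited table repeats these values and was not used. Counts were filtered (filterByExpr), TMM-scaled and tested with edgeR 4.0.16 (R 4.3.3) without a replicate block; standard errors and 95% intervals come from that fit. DESeq2 1.42.0 and limma 3.58.1 on log2(RPKM + 1) and log2(RPKM + 0.1) were alternatives, as were other scalings, filters and thresholds, thinned counts and leaving out each library. The fit was tested on simulated data. RPKM was used for levels between genes; its length was computed from count, total and RPKM. The members and lists were chosen with earlier results of these data known. Every member is named. For the other lists, these are the lowest and highest fold change and any gene called lower. A few further genes are named for the paper's measurements, their annotation or differences between replicates. A count of 3 corresponds to 0.158 to 0.235 CPM before TMM; counting error alone is covered. Names behind identifiers outside the members are the standard KEGG ones. No sequences were used.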

Additional observations from a re-analysis of the deposited data

How the results depend on the processing

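ORC5 had the lowest counts of the members, 6 and 11 in WT, and stayed called with thinned counts (1.79, adjusted p = 0.0341). With limma on RPKM + 1 its log2 fold change was 0.69. ORC1, ORC3, ORC6 and LOC_Os04g10650 stayed called in all 15 alternative fits. With 1 library left out, 4 to 6 members were called higher and 0 to 1 lower. Of all tested genes, 1668 to 2626 were then called higher and 1493 to 2275 lower. The helicase and origin firing genes called lower ran from 0 to 1 each. The log2 fold change of LOC_Os01g08880 ran from -1.54 to -1.07, CDC6 from 0.42 to 1.37, LOC_Os10g34820 from 0.42 to 1.16, ORC5 from 1.57 to 2.04, ORC2 from -0.22 to 0.18 and ORC4 from -0.27 to 0.17. ORC2 and ORC4 turned positive with the library size alone (0.15 and 0.10), upper-quartile scaling (0.06 and 0.02), thinned counts (0.07 and 0.07), limma with RPKM + 1 (0.13 and 0.10) and RPKM + 0.1 (0.15 and 0.12), all far from the threshold. CDC6 passed an adjusted p of 0.05 with the library size alone (1.15), no filter (0.98) and DESeq2 (0.96). LOC_Os10g34820 did so with the library size alone (1.02), upper-quartile scaling (0.92), no filter (0.85), DESeq2 (0.82) and the replicate block (0.80). ORC5 did not with DESeq2 (1.78). Over all tested genes, limma with RPKM + 1 called 1336 lower. When any fold was accepted, 4594 rose and 4483 fell, and 2 origin firing genes and 1 of CUL4 and DDB1 were lower. At an adjusted p under 0.01, 1614 were higher and 1493 lower. The cause of these changes was not tested.

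The labels tie same-numbered libraries of the 2 genotypes by a number only. Their deviations from the genotype means had a correlation of -0.004 over 24470 genes. A value over all genes cannot show whether smaller groups of genes vary together, and a shared batch was not tested. With the replicate block, 2736 genes were called higher and 2231 lower, and 4 members higher, as ORC5 missed the threshold (1.78, adjusted p = 0.0517). The search for E2F words in promoters was not run because no promoter sequences were used here.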

Other observations

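The 2 mre11 libraries differed in the same direction for every member. TMM-scaled CPM was higher in mre11 replicate 1 than in mre11 replicate 2 for 10 of the 10 genes, where 50.0% of all tested genes were, and the log2 ratio of replicate 1 over replicate 2 ran from 0.03 for ORC1 to 0.97 for CDC6, with a median of 0.25 against 0.00 for all tested genes. Polymerase alpha and primase had 4 of 4 loci in that direction (median 0.29), the helicase list 6 of 7 (median 0.22) and the markers of dividing cells 7 of 10 (median 0.18). The green leaf markers went the other way, with 1 of 15 higher in mre11 replicate 1 (median -0.63) and 1 of 15 in WT replicate 1 (median -0.80). In WT, 7 of the 10 members were higher in replicate 1 (median 0.26). These values have no test, and the members are not independent of each other.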
